A study of Mus musculus with 8 samples.

Results

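The 232 genes described here are the nuclear transfer RNA (tRNA) genes of the mouse that have an H2A.Z peak of control testis within 1 kb of either gene end. They are called members below. They were chosen from 408 tRNA genes on nuclear chromosomes in the RefSeq table for mm10 (GRCm38.p6), so 56.9% of these genes are members (exact 95% interval 51.9 to 61.7%). Of all 49943 genes on nuclear chromosomes, 43.4% have a control peak within 1 kb. The choice used the control peak list, so the presence, width and position of control peaks at members are descriptions of what was chosen. The series used ChIP-seq, the sequencing of DNA pulled down with an antibody, to map the histone variant H2A.Z in testis cells at postnatal day 14. Control mice and mice of the genotype Znhit1-CKO, named Znhit1-sKO in the labels' protocol, each gave 2 H2A.Z libraries and 2 input libraries, 8 in all. ZNHIT1 is a subunit of the SRCAP complex, which places H2A.Z in chromatin, and the series asks how it shapes H2A.Z occupancy. The sources used here do not give the alleles, any Cre driver, the strain or the cell type meant to lose the gene. The libraries came from digested whole testes, so germ cells and somatic cells are mixed, and fewer cells of a type cannot be told apart from less H2A.Z per cell. No expression was measured, so the cell types were not checked by markers.

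The files hold 1 peak list per genotype (48752 control and 31156 Znhit1-CKO peaks) and 1 list of differential regions without sign, fold or p. With 1 peak list per genotype, no difference between the peak lists could be set against replicate spread, and no p-value is given. Intervals given with shares are exact 95% binomial intervals and cover counting error only. Neighbouring tRNA genes share peaks and are not independent, which makes these intervals too narrow. A member is called kept where a Znhit1-CKO peak lay within 1 kb of either gene end, and lost where none did. A peak is a region that passed the peak caller's threshold, so a lost peak does not show that all H2A.Z was gone. Many tRNA genes have near-identical copies, and how reads that match several places were handled is not given in the sources used here, so single genes within such families are uncertain.

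A tRNA carries an amino acid to the ribosome and reads a codon through its anticodon. tRNA genes are short and are transcribed by RNA polymerase III from a promoter that lies inside the gene. The factor TFIIIC binds this promoter at the A box and the B box, and TFIIIB then bridges to the polymerase just upstream. Active tRNA genes are largely free of nucleosomes, and the nucleosomes beside them often carry H2A.Z. In the gene symbols, the capital letter after n-T is the amino acid in 1-letter code, the 3 small letters are the anticodon and the number tells copies apart.

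Sequence could be read for 4 members, because their whole gene lies inside a promoter window of another gene in the RefSeq sequences (GRCm38.p6). They are shown for the internal promoter on which the position of H2A.Z bears. Each is written from 5′ to 3′ on the strand that holds the B box letters GTTCNANNC. Capitals mark the anticodon and, after it, the B box match.
n-TAagc16 (alanine, chr13:21222586-21222657, + strand): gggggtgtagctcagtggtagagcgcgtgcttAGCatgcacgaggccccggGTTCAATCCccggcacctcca
n-TVcac9 (valine, chr13:23446142-23446214, - strand): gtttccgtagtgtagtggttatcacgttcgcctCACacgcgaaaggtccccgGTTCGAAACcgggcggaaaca
n-TTagt9 (threonine, chr7:35234770-35234843, - strand): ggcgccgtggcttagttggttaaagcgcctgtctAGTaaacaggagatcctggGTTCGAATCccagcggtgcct
n-TRtcg5 (arginine, chr7:79466419-79466491, + strand): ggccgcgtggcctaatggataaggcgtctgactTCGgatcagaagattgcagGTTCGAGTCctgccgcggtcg
The anticodon named in each symbol starts at base 33 to 35 of the gene, and the B box match starts at base 52 to 54. The same 9 letters were found on either strand in 9.32% of 32851 promoter windows of 300 bases, so a match alone does not mark a tRNA gene.

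n-TRtcg5 shows how close a tRNA gene and a protein-coding gene can lie. It lies inside the annotated span of Polg, the gene of the mitochondrial DNA polymerase, and upstream of the Polg start used for the RefSeq promoter window. That window (chr7:79466224-79466523, - strand) is printed with the tRNA gene in capitals, to show how near the start the tRNA gene lies.
Polg window: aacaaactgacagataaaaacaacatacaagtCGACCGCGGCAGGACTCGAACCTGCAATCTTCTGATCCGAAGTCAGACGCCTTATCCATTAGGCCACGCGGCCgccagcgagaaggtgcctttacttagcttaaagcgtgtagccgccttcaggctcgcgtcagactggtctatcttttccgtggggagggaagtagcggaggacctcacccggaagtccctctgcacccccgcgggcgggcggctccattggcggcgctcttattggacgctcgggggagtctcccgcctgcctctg
The control peak here was 1397 bp wide (chr7:79466490-79467886) and reached only the last 2 bases of n-TRtcg5. In Znhit1-CKO, peaks lay on both sides of the tRNA gene and did not touch it, and the nearer began 37 bp away. A differential region lay 226 bp from the gene.

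Of the other genes shown, n-TTagt9 lay wholly inside a control peak of 1545 bp and wholly inside a Znhit1-CKO peak of 1638 bp. n-TVcac9 lay inside a control peak of 1621 bp, whereas in Znhit1-CKO peaks lay on both sides, the nearer 6 bp away and 847 bp wide. n-TAagc16 lay inside a control peak of 1426 bp and beside a Znhit1-CKO peak of 904 bp that began 47 bp away. These 3 genes could be read because they lie in promoter windows of lncRNA genes, which were Gm38989, Gm46404 and Gm32420 in turn. At each the control peak also reached an end of that lncRNA gene, which this choice made likely.

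Fewer members had a control peak over the centre of the gene than over the positions 300 bp to either side. At the centre, 49.1% of members had a control peak over them, against 60.8% at 300 bp to the left and 58.2% at 300 bp to the right. The centre minus the mean of the flanks was -10.3 percentage points. In the Znhit1-CKO list 33.6% of the same genes were covered at the centre and 49.6% at 300 bp on each side, a difference of -15.9 points. The rule asked only for a control peak within 1 kb of an end and did not fix where the peak lay. The 232 microRNA genes chosen by the same rule, with a median length of 79 bp against 73 bp for members, had no such dip. They were covered at the centre in 63.4% and at the flanks in 58.2% on average, 5.17 points higher at the centre. Other short genes also had a lower share at the centre than the mean of the flanks. The 107 snoRNA genes (median length 119 bp) were at -8.41 points in the control list and -2.34 in the Znhit1-CKO list, and the 86 snRNA genes (116 bp) at -4.65 and -4.07. A centre below the flank mean is therefore not particular to tRNA genes, but the shapes differed. For snRNA genes the control share was 34.9% at 300 bp to the left and 25.6% both at the centre and to the right. For snoRNA genes it was 23.4% at 300 bp to the left and higher further out, at 45.8% 1040 bp to the left. For members it was 40.5% there, below their share at 300 bp. None of these differences has a replicate test. How reads that match several gene copies were handled is not given, and its part in the dip was not tested.

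**Figure D1:**
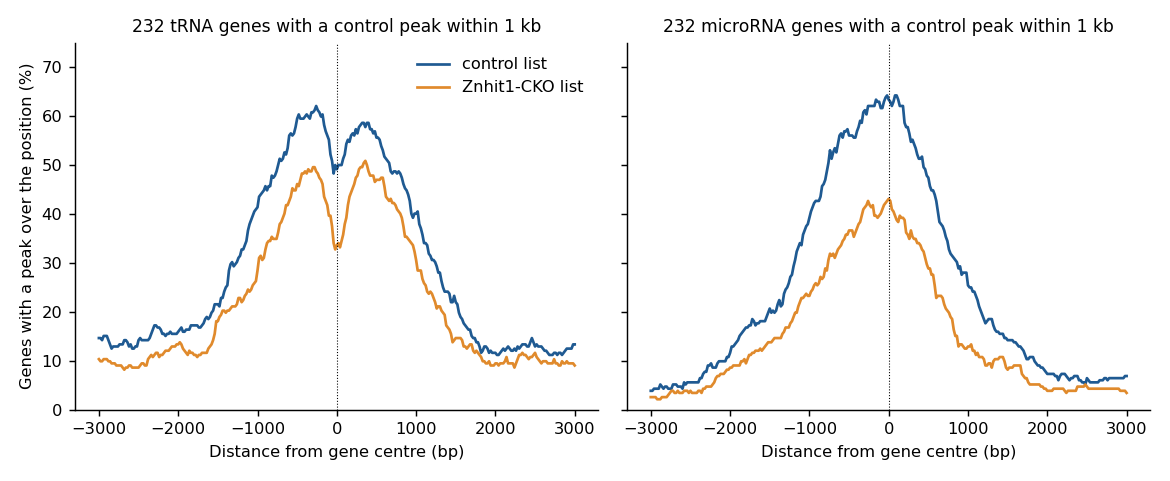
Share of genes (%) with a peak over each position from 3000 bp to the left to 3000 bp to the right of the gene centre, for the 232 tRNA genes (left panel) and 232 microRNA genes (right panel) with a control peak within 1 kb. The tRNA curves dip at the centre, to 49.1% in the control list and 33.6% in the Znhit1-CKO list, and the microRNA curves do not.

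The centre was below the flanks in each subset of members examined. For the 51 members whose nearest control peak lay within 1 kb of a protein-coding gene end the difference was -27.5 points in the control list and -25.5 in the Znhit1-CKO list, and for the other 181 it was -5.52 and -13.3. Members with no other tRNA gene within 10 kb were at -9.32 and -19.5 points. Members in clusters of 5 or more tRNA genes were at -16.5 and -18.6 points.

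Gene by gene, 100 members (43.1%) lay wholly inside a control peak and 27 (11.6%) partly. Another 30 lay between control peaks on both sides without being touched, and 75 had a peak on 1 side only. For the 105 members beside their peak, the median distance to it was 134 bp, and 63 of them were within 200 bp. In Znhit1-CKO, 67 members lay wholly inside a peak, 23 partly, 37 between peaks, 65 beside a peak on 1 side, and 40 had no peak within 1 kb. Fewer members were therefore covered whole, and somewhat more stood between peaks.

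Of the 100 members wholly inside a control peak, 52 were also wholly inside a Znhit1-CKO peak, 15 partly, 13 between peaks, 14 beside a peak on 1 side and 6 had none. n-TRcct1, an arginine gene by the end of Fmc1, is a member that came to stand between peaks. Its control peak of 3179 bp (chr6:38532572-38535750) was met in Znhit1-CKO by several peaks, the widest of 1507 bp, and the nearest began 78 bp from the gene. Another, chosen after its values were seen, is n-TYgta9, a tyrosine gene near Agbl5, where the control peak was 1612 bp wide and the nearest Znhit1-CKO peak was 1099 bp wide and 28 bp away.

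Most tRNA genes with control H2A.Z still had a peak in Znhit1-CKO testis. A Znhit1-CKO peak lay within 1 kb of 192 of the 232 members (82.8%, 77.3 to 87.4%), and 40 were lost (17.2%, against 21.3% of all genes with a control peak). Among all 21697 genes with a control peak within 1 kb the share was 78.7%, so the members as a whole were near the background. Each end of a gene was searched, so long genes had more sequence searched than tRNA genes. Shares of classes with long genes are therefore not fully alike in measure. Protein-coding genes were at 88.5%, lncRNA genes at 65.0%, microRNA genes at 69.0%, snoRNA genes at 68.2%, snRNA genes at 74.4% and pseudogenes at 23.5%. The tRNA share lay below that of protein-coding genes and above those of the other classes listed, and of these classes only snRNA genes had an interval (63.9 to 83.2%) that overlapped the tRNA interval. Counted by the 167 distinct control peaks nearest to members, 134 (80.2%, 73.4 to 86.0%) were overlapped by a Znhit1-CKO peak, against 49.3% of all 48752 control peaks.

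The members stood further from other sites once peaks at protein-coding genes were set aside. Of 181 members whose control peak lay more than 1 kb from every protein-coding gene end, 144 were kept (79.6%, 72.9 to 85.2%). The share was 50.2% (48.4 to 52.1%) for lncRNA genes with such peaks, 56.9% for microRNA genes, 46.0% for snoRNA genes, 63.3% (49.9 to 75.4%) for snRNA genes and 19.1% for pseudogenes. By distinct peaks, 98 of 127 tRNA peaks away from protein-coding gene ends were overlapped by a Znhit1-CKO peak (77.2%, 68.9 to 84.1%). Of all 33605 control peaks away from such ends, 34.5% were. With lncRNA ends set aside as well, 103 of 139 members were kept (74.1%, 66.0 to 81.2%).

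Peak width moves with this share. The tRNA peaks away from protein-coding gene ends had a median width of 996 bp, against 595 bp for all control peaks away from such ends. Within width classes the tRNA share was still the higher. For peaks under 500 bp it was 46.2% (26.6 to 66.6%) against 17.5% (16.8 to 18.1%) for other peaks away from protein-coding gene ends. For 500 up to 1000 bp it was 69.2% (52.4 to 83.0%) against 34.7%. For 1000 up to 1500 bp it was 90.3% (74.2 to 98.0%) against 63.0%, and all 31 tRNA peaks of at least 1500 bp were overlapped, against 85.4% of other peaks. Peaks at protein-coding gene ends had 21.5%, 60.2%, 93.2% and 98.6% in the same classes, and apart from the narrowest class, where they were lower, these lay within the tRNA intervals. Whether width accounts for the rest of the difference was not tested.

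**Figure D2:**
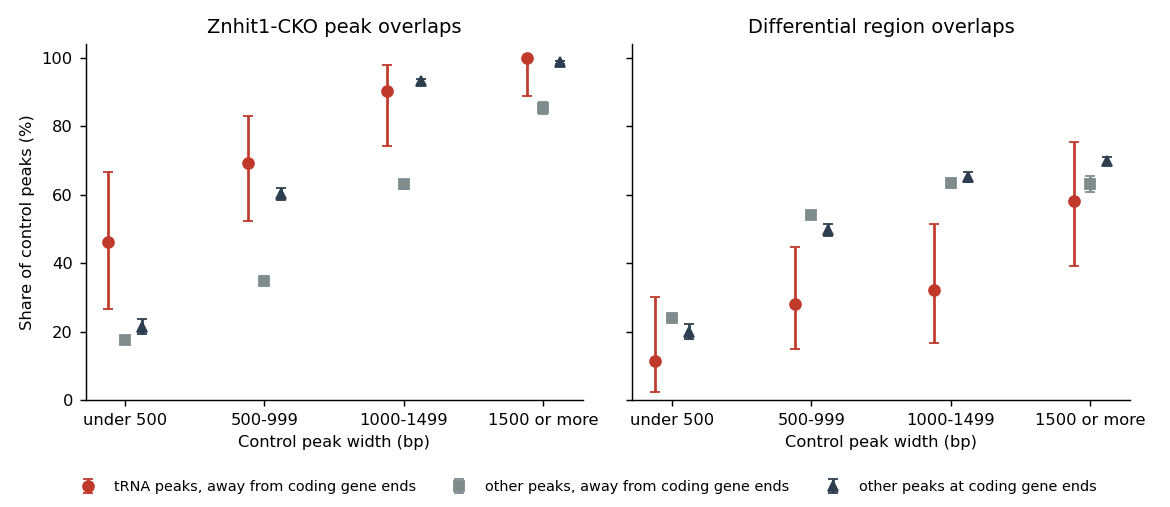
Share of control peaks (%, bars are exact 95% binomial intervals) overlapped by a Znhit1-CKO peak (left) and by a differential region (right), by control peak width in bp, for tRNA peaks away from protein-coding gene ends, other peaks away from them and other peaks at them. tRNA peaks of 500 up to 1000 bp had a Znhit1-CKO peak at 69.2% and a differential region at 28.2%.

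By the same search around gene ends, differential regions were rarer at tRNA genes than at other genes with control H2A.Z. Long genes, whose ends lie apart, had more sequence searched than tRNA genes, and the part of this in the gap was not tested. A region lay within 1 kb of 76 of the 232 members (32.8%, 26.8 to 39.2%), against 60.1% of all genes with a control peak. Protein-coding genes were at 62.8%, lncRNA genes at 54.6%, microRNA genes at 50.9%, snoRNA genes at 41.1% and snRNA genes at 38.4%. The intervals for snoRNA genes (31.7 to 51.0%) and snRNA genes (28.1 to 49.5%) overlap that of tRNA genes. By distinct peaks, 35.3% of tRNA peaks overlapped a region against 48.9% of all control peaks. Away from protein-coding gene ends the values were 33.1% (25 to 42.0%) and 44%.

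In classes of equal width the tRNA peaks away from protein-coding gene ends carried fewer regions below 1500 bp. The share was 28.2% (15.0 to 44.9%) against 54.0% for widths of 500 up to 1000 bp, and 32.3% (16.7 to 51.4%) against 63.3% for 1000 up to 1500 bp. The tRNA intervals hold the other peaks' share in the remaining classes, with 11.5% (2.45 to 30.2%) against 24.0% for peaks under 500 bp and 58.1% (39.1 to 75.5%) against 63.1% for those of at least 1500 bp. Kept and lost members had a region about equally often, as 63 of 192 kept members (32.8%) and 13 of 40 lost members (32.5%) had a region.

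Where a control peak and a Znhit1-CKO peak matched one to one, the Znhit1-CKO peak was usually narrower. This held for 91 of 112 pairs at tRNA genes (81.2%), with a median log2 width ratio of -0.27 (Znhit1-CKO over control), and the median widths were 1202 bp in control and 920 bp in Znhit1-CKO. Among all 22040 pairs the share was 79.0% and the median log2 ratio -0.27, so the narrowing at tRNA genes was close to that of the lists as a whole. A control peak met more than 1 Znhit1-CKO peak at 18 of 167 tRNA peaks (10.8%), and at 3.42% of all control peaks. At tRNA peaks within 1 kb of protein-coding gene ends it was 11 of 40 (27.5%), against 8.20% of all peaks at such ends.

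Peaks of 51 members lay within 1 kb of an end of a protein-coding gene, with 38 nearest protein-coding genes in all. For 39 of these members the peak reached over the end itself. The tRNA gene itself lay within 1 kb of such an end for 44 members and for 5 of the 176 tRNA genes without a control peak. The median distance from the tRNA gene to the nearest protein-coding gene end was 7181 bp for members and 28206 bp for the others. Of the 51, 48 were kept (94.1%, 83.8 to 98.8%). By distinct peaks at such ends, 36 of 40 tRNA peaks were overlapped by a Znhit1-CKO peak (90%, 76.3 to 97.2%). Of all 15147 control peaks at such ends, 82.0% were, which lies within that interval. The 3 lost members, n-TIaat5, n-TSaga4 and n-TTagt8 for isoleucine, serine and threonine, have the same nearest control peak. It is 270 bp wide and lies near Ctc1, a gene of telomere maintenance. 17 members lay inside the span of a protein-coding gene and 41 inside that of a lncRNA gene, with exons and introns not analysed here.

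Among protein-coding neighbours chosen after their values were seen is Polr3e, which encodes a subunit of RNA polymerase III itself. Its control peak of 754 bp lay 134 bp from n-TLaag4, a leucine gene on chromosome 7, and was overlapped by a Znhit1-CKO peak of 611 bp. No differential region lay within 1 kb.

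The widest control peak at members, 3821 bp (chr14:51088176-51091996), covered n-TTtgt1, n-TYgta10 and n-TPtgg5 for threonine, tyrosine and proline and an end of Ang, which encodes the ribonuclease angiogenin, an enzyme that cuts tRNAs under stress. The widest Znhit1-CKO peak that overlaps it had 1971 bp. On the same chromosome a peak of 3661 bp over n-TLaag8 lay 3957 bp from Olfr750, an olfactory receptor gene, and its Znhit1-CKO counterpart was 3683 bp wide. A peak of 3266 bp at n-TIaat6 on chromosome 12 met a narrower Znhit1-CKO peak of 2361 bp. Those of 3283 bp at n-TTtgt2 on chromosome 11 and 3136 bp at n-TEttc1 on chromosome 1 met more than 1 Znhit1-CKO peak. The widest of these had 1821 bp and 1931 bp in turn. None of these 5 tRNA genes had a differential region within 1 kb. The peak of 2546 bp beside n-TEctc11 on chromosome 13 met a Znhit1-CKO peak of 1506 bp, and that of 2520 bp at n-TRacg3 on chromosome 3 met one of 2468 bp. n-TRacg3 had a region 220 bp away. Each of the 8 members with the widest peaks, n-TRcct1 included, was kept.

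Control peaks of some members lay far from every end of a protein-coding gene. The most remote, the glutamate gene n-TEttc7 (chr7:58399315-58399386), lay inside a control peak of 2200 bp that was 255998 bp from the nearest protein-coding gene end, that of Atp10a. The Znhit1-CKO peak there was 2202 bp wide and the nearest differential region was 258749 bp away. n-TNgtt9, an asparagine gene on chromosome 2 whose peak lay 84049 bp from Commd3, kept a peak of 1318 bp against 1421 bp in control. n-TGgcc9, a glycine gene inside Trim2, kept one of 452 bp against 1204 bp and had a region 290 bp away. n-TEttc8 on chromosome 9, 70947 bp from Acpp, and n-TVaac6 on chromosome 13, 49476 bp from Vmn1r223, were lost.

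Lost peaks were narrow. The 33 distinct tRNA peaks that no Znhit1-CKO peak overlapped had a median width of 460 bp (231 to 1305 bp), and the 134 overlapped ones 1361 bp (254 to 3821 bp). Among lost members, the widest control peak was that of n-TEttc8 (chr9:104408669-104409973, 1305 bp), with the nearest Znhit1-CKO peak 70602 bp away and a differential region at 347 bp. Next came the cysteine gene n-TCgca57 on chromosome 6 (1157 bp, nearest Znhit1-CKO peak at 24586 bp) and the aspartate gene n-TDgtc14 on chromosome 5 (1104 bp, region at 251 bp). The leucine gene n-TLcag5 on chromosome 8 (948 bp) had a region at 409 bp, and the histidine gene n-THgtg6 on chromosome 3 (788 bp) one at 56 bp. n-TKctt7, a lysine gene inside Cdh19 (851 bp), was 849647 bp from the nearest Znhit1-CKO peak. n-TWcca3, a tryptophan gene on chromosome 13 (827 bp), had no region within 1 kb. n-TDgtc4 on chromosome 1 (791 bp) was called lost with a Znhit1-CKO peak at 1008 bp that overlaps its control peak, the only such case among the 40. For 7 of the 40 lost members a Znhit1-CKO peak lay within 2 kb.

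tRNA genes lie in groups along the chromosomes. Joined where the gap to the next was at most 10 kb, the 408 genes formed 111 single genes, 43 clusters of 2 to 4 genes and 22 clusters of 5 or more. Members were found in 112 of these 176 units. They made up 53.2% of single genes, 70.4% of genes in clusters of 2 to 4 and 51.3% of genes in larger clusters. Without the cysteine genes, the share in larger clusters was 97 of 148 (65.5%, 57.3 to 73.2%). Of the 167 distinct peaks, 45 were the nearest peak of more than 1 member, 110 members in all, with up to 4 members on 1 peak.

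Differential regions became rarer with cluster size. A region lay within 1 kb of 34 of 59 single members (57.6%, 44.1 to 70.4%), of 31 of 76 in clusters of 2 to 4 (40.8%, 29.6 to 52.7%) and of 11 of 97 in larger clusters (11.3%, 5.80 to 19.4%). The share for single tRNA genes was close to the 60.1% of all genes with a control peak, though more sequence was searched at long genes. The kept share fell less, at 55 of 59 (93.2%), 64 of 76 (84.2%) and 73 of 97 (75.3%, 65.5 to 83.5%). Median peak width moved with cluster size too, at 1559, 1092 and 791 bp. For peaks of at least 1000 bp the kept shares were 97.8%, 97.9% and 94.4%, while regions were still at 66.7% (51.0 to 80.0%), 41.7% (27.6 to 56.8%) and 16.7% (6.37 to 32.8%). For narrower peaks the kept shares were 78.6%, 60.7% and 63.9%, and regions were at 28.6%, 39.3% and 8.20%. The part of peak width and of near-identical copies in these shares was not tested.

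**Figure D3:**
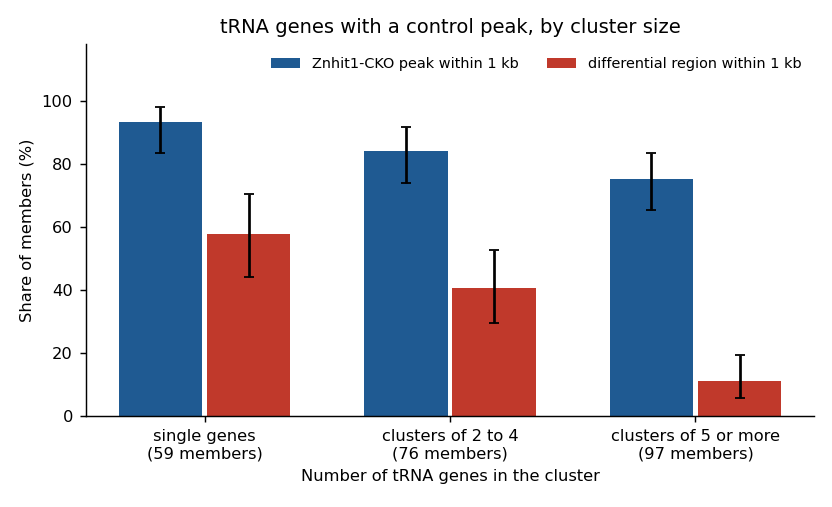
Share of members (%, bars with exact 95% binomial intervals) with a Znhit1-CKO peak and with a differential region within 1 kb, by the number of tRNA genes in the cluster. The share with a region was 57.6% for single genes and 11.3% in clusters of 5 or more, and the kept share 93.2% and 75.3%.

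Chromosome 13 holds 105 of the 408 tRNA genes and 71 of the members. Of these 49 were kept (69.0%, 56.9 to 79.5%) and 22 were lost. On the other chromosomes 143 of 161 members were kept (88.8%, 82.9 to 93.2%). Regions were at 14.1% of the members on chromosome 13 and at 41.0% of the others. The median peak width was 791 bp on chromosome 13 and 1325 bp elsewhere.

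Neighbouring clusters on chromosome 13 differed from each other. The cluster with the most members runs from n-TYgta3 to n-TLcag10 (chr13:23425646-23453514) and has 10 members among 14 genes for 9 amino acids. Each of the 10 was kept. The first is n-TAagc13, whose peak was 1564 bp wide. The last, n-TLcag10, had 996 bp in control, 902 bp in Znhit1-CKO and a region at 41 bp. The cluster from n-TEctc11 to n-TLcaa4 (chr13:21160785-21172942) has a control peak within 1 kb of each of its 9 genes, and each was kept. In contrast, the cluster from n-TMcat2 to n-TSaga8 (chr13:21907111-21940995) has 9 members among 15 genes, of which 4 were kept and none had a region. Its first gene n-TMcat2 lost a peak of 507 bp, and its last, n-TSaga8, kept one (1056 bp in control, 1090 bp in Znhit1-CKO).

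On chromosome 19 the cluster from n-TFgaa6 to n-TVtac2 (chr19:12002236-12012338) has 8 members of 8 genes, and 7 were kept. The lost one, n-TFgaa6, had a control peak of 683 bp and a region at 455 bp, and n-TVtac2 kept a peak (661 bp in control, 598 bp in Znhit1-CKO). On chromosome 11 the cluster from n-TIaat5 to n-TWcca7 (chr11:69037003-69041897) lies between Ctc1 and Aurkb, the gene of a mitotic kinase. All of its 7 genes are members and 4 were kept, the 3 lost ones sharing the peak near Ctc1. n-TWcca7 kept a peak of 343 bp against 473 bp in control.

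**Figure D4:**
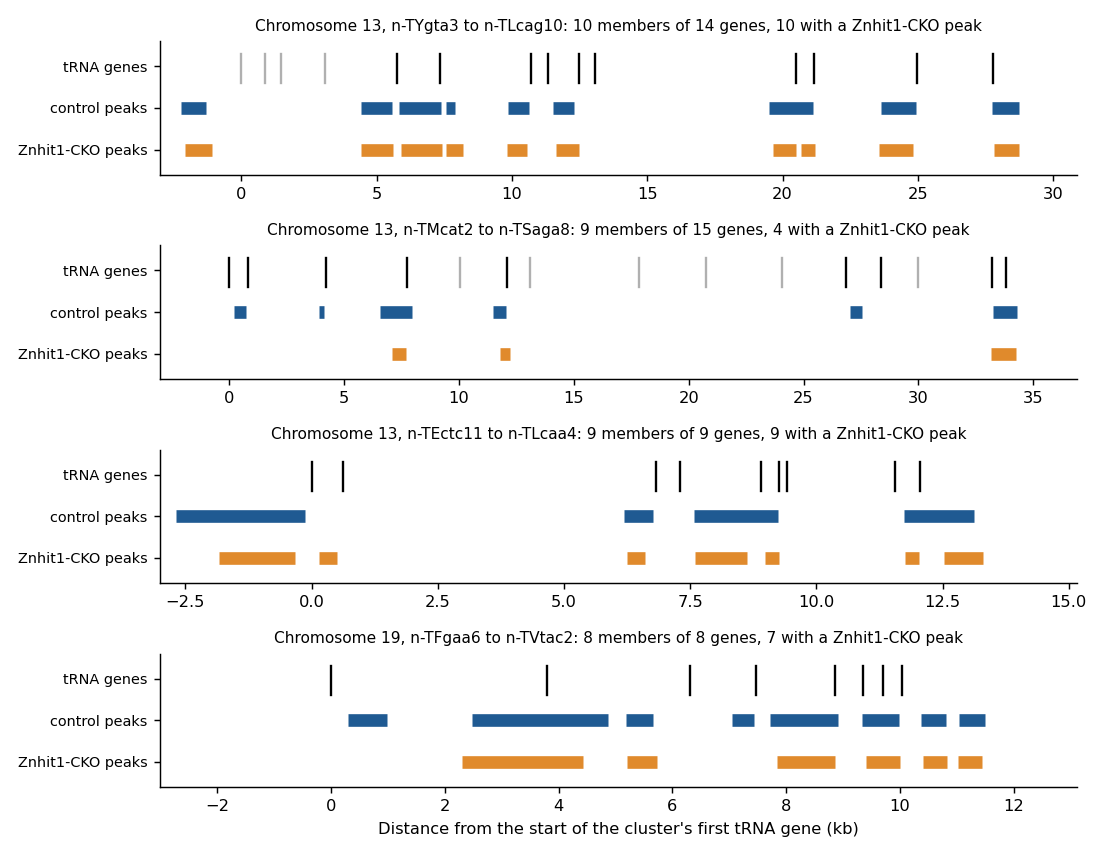
The 4 clusters with most members, with distance from the start of the first tRNA gene in kb, tRNA genes as ticks (black for members, grey for the others) and peaks of each list as bars. Each of the 10 members in the top panel has a Znhit1-CKO peak within 1 kb, against 4 of 9 in the panel under it.

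The members cover nearly the whole genetic code. Of 48 anticodons among the nuclear tRNA genes, 46 had at least 1 member and 45 at least 1 kept member. The exceptions without a member were histidine ATG and serine GGA, each with 1 gene. Lysine TTT had 1 member of 2 genes, n-TKttt23 on chromosome 13, and it was lost. Each amino acid had between 5 and 19 members.

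Few cysteine genes were members, and most cysteine genes lie in 1 stretch of chromosome 6. Only 5 of 57 cysteine genes were members (8.77%, 2.91 to 19.3%), against 227 of 351 other tRNA genes (64.7%, 59.4 to 69.7%). On chromosome 6, 49 cysteine genes lie between bases 47978997 and 48363603, and 1 of them, n-TCgca57, was a member. The median distance of these 49 genes to a control peak was 44693 bp. The low share for cysteine thus came mostly from this stretch. Its interval treats these neighbouring copies as independent, and the part of near-identical copies was not tested. The 4 cysteine members that were kept lie on chromosomes 11 and 17. n-TCgca51, near Lasp1, had a control peak of 1942 bp, n-TCgca54 and n-TCgca55 share one of 1408 bp near Arl5c, and n-TCgca52 had one of 1412 bp.

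Among the other amino acids the share of members was lowest for glutamine, with 8 of 16 genes, and tyrosine, with 5 of 10, and highest for phenylalanine, with 7 of 7. Glycine and tyrosine lost none of their 15 and 5 members. Valine lost 5 of 16, aspartate 4 of 11, and histidine, glutamine, alanine and isoleucine 3 each, of 7, 8, 17 and 12 members. The 3 lost histidine genes, n-THgtg1, n-THgtg2 and n-THgtg6, lie on chromosome 3, had control peaks of 640, 741 and 788 bp, and each had a differential region within 1 kb. Histidine genes on chromosome 2 (n-THgtg3, n-THgtg4 and n-THgtg5) were kept. These counts are small and no difference between amino acids was tested.

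**Figure D5:**
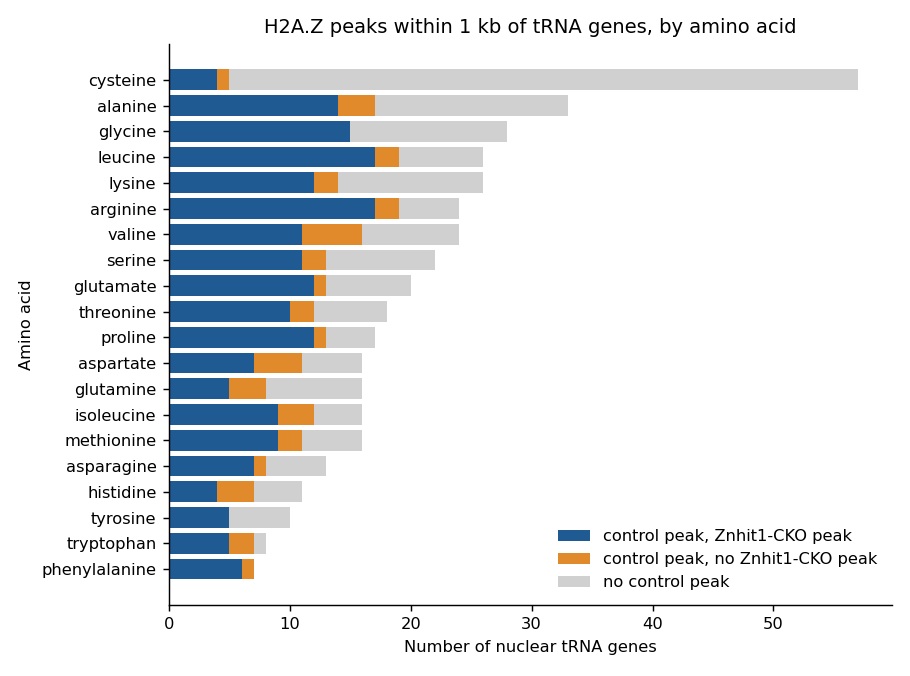
Number of nuclear tRNA genes by amino acid, split into genes with a control peak and a Znhit1-CKO peak within 1 kb, with a control peak only, and without a control peak. Cysteine has 57 genes and 5 members, and all 7 phenylalanine genes are members.

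The limit of 1 kb left few genes near it. 213 members lay within 500 bp of a control peak and 19 between 500 and 1000 bp. The members farthest from a peak were n-TSgct8 (982 bp), n-TVaac6 (946 bp) and n-TAagc12 (934 bp), and the nearest genes outside were n-TQctg10 (1026 bp), n-TYgta8 (1036 bp) and n-TPcgg1 (1180 bp). The 176 genes outside had a median distance of 13199 bp to a control peak, and 16 of them were within 2 kb.

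The protein-coding genes that make and process tRNAs kept their H2A.Z peaks. Of 35 genes of RNA polymerase III and its factors, 34 had a control peak within 1 kb and all 34 were kept. Snapc3, a subunit of the complex for small nuclear RNA promoters, had none. Of 24 aminoacyl-tRNA synthetase and cofactor genes, which include mitochondrial Fars2, all 24 had a control peak and were kept. Of 34 genes of tRNA processing and modification 32 had one, Rpp40 and Trmt1 being the exceptions, and all 32 were kept. A kept peak is the common outcome at protein-coding genes, 88.5% of which kept theirs. Differential regions lay at 24 of 34, 12 of 24 and 21 of 32 of these genes, against 62.8% of protein-coding genes with a control peak.

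Of 78 other genes transcribed by RNA polymerase III, 9 had a control peak and all 9 were kept. Of all genes 43.4% had a control peak, and 78.7% of those were kept. The 5S ribosomal RNA genes had a control peak at 1 of 69, and the other genes of the list at 8 of 9, with Rnu6 the exception. Most of the 5S genes lie in a row on chromosome 8. How reads that match several such copies were handled is not given, so their low share is uncertain. The 9 are Rmrp, Rpph1, Rn7sk, Rny1, Rny3, Vaultrc5, Rn7s1, Rn7s2 and the 5S gene n-R5s41. Rpph1, the RNA of the enzyme RNase P that trims tRNA precursors, lay in a control peak of 1342 bp, and Rn7sk, which restrains transcription elongation by RNA polymerase II, lay 219 bp from one of 1537 bp. Regions lay at 5 of the 9, including Rpph1, against 60.1% of all genes with a control peak.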

How the data were processed

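H2A.Z ChIP-seq was done on testis cells of mice at postnatal day 14. Per the submitters' processing notes, the authors' tools were MACS2 2.2.4, Picard 2.20.7, SAMtools 1.9, BWA 0.7.17 and cutadapt 2.5, and the build was mm10. The authors deposited peaks and differential regions as chromosome, start and end only. The name of the list of differential regions points to the tool EdgeR, whose version is not given in the sources used here. How peaks and differential regions were thresholded, whether replicates were pooled and how multiply mapped reads were treated is not given in the sources used here. The depth of single libraries is unknown here.

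Gene spans, without strand, were read from RefSeq (GRCm38.p6). Of its 430 tRNA genes, 22 mitochondrial ones were left out. The 408 used include 4 entries at chr11:8361-11797. Their span of 3.437 kb equals that of the 4 genes from n-TTtgt2 to n-TLaag6 on the same chromosome. These entries and Trnav-cac at chr11:1440395 had no control peak within 1 kb, and whether they are placed correctly was not checked. Amino acid and anticodon came from symbols. A distance was taken from either gene end to the nearest peak edge, and ties went to the wider peak. A peak was at a protein-coding gene where an end lay within 1000 bp. tRNA genes were joined into clusters at gaps up to 10000 bp. Peaks were overlapping at 1 bp. Coordinates count from 1. No hypothesis test was made, since each genotype has 1 list.

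Named genes were the 8 members with the widest control peaks, the 8 widest among lost members, the ends of the 5 clusters with most members, members of amino acids with 3 or fewer (none), the 3 genes on each side of the limit and the 5 members whose control peak lay farthest from an end of a protein-coding gene. Other genes were named after their values were seen. The members, gene lists and rules were chosen with earlier results of these data known. The functions for distance and overlap were checked on simulated intervals and by direct count, with 0 wrong in 400, 500 and 2224 cases. Alternatives covered windows, overlap, peak width, cluster gap, the largest cluster and counting by peak. Scripts ran on scipy 1.17.1, pandas 2.3.3, numpy 2.4.6, matplotlib 3.10.9 and Python 3.11.15.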

Additional observations from a re-analysis of the deposited data

How the results depend on the processing

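The number of tRNA genes with a control peak (232) was 127 where the peak had to touch the gene, and 202 to 248 with windows of 500 and 2000 bp or peaks of at least 500 bp only. The kept share (82.8%) was 67.7% where a Znhit1-CKO peak had to cover 50% of the control peak, and 80.2% to 84.0% under the other 6 alternatives. For control peaks at protein-coding gene ends (94.1%) it was 100% with ends within 500 bp and 93.9% within 2000 bp. Away from such ends (79.6%) it was 77.2% to 78.6% under 4 alternatives, the largest cluster left out among them. The share with a differential region (32.8%) was 30.0% to 35.9% under 3. Clusters with a member (112) numbered 124 and 84 with gaps of 5000 and 50000 bp. No paired analysis was possible because each genotype has 1 list. For the same reason no replicate could be left out. A stricter peak threshold was not run, since no score accompanies a peak. The depth of single libraries is unknown, and how it limits these shares was not tested.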

Other observations

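Of the 176 tRNA genes without a control peak within 1 kb, 5 had a Znhit1-CKO peak there. They were n-TTcgt2 and n-TTagt4 for threonine, n-TIaat11 for isoleucine and n-TQctg10 for glutamine on chromosome 13, and n-TKctt15 for lysine on chromosome 3. The nearest Znhit1-CKO peak lay 202 bp from n-TTcgt2, 236 bp from n-TIaat11, 43 bp from n-TTagt4, 860 bp from n-TQctg10 and 463 bp from n-TKctt15. n-TQctg10 was also the closest to the limit among the 176, with a control peak at 1026 bp. None of the 176 genes had a differential region within 1 kb. The same shares over all other genes without a control peak were not computed, so neither count can be called unusual or common. Clusters of 5 or more tRNA genes without a single control peak within 1 kb numbered 3. Within units that had members, 13 of 112 had no kept member. They include the cluster from n-TVaac6 to n-TMcat12 on chromosome 13 with 4 members and 0 kept, and that from n-TWcca3 to n-TWcca4 with 3 members and 0 kept.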
